A study of Homo sapiens with 4 samples.

Results

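The clustered protocadherin genes PCDHA, PCDHB and PCDHG lie side by side on the long arm of chromosome 5, and the peaks over them from a study of H3K9me3 are described here. H3K9me3, trimethylation of lysine 9 of histone H3, marks constitutive heterochromatin and is bound by HP1 proteins. The cells were U2OS, an established human osteosarcoma line grown in medium with serum, and chromatin was cross-linked, precipitated and sequenced. All 4 samples carry the name KRAB-IDR3-TCF3, which the labels do not explain; 2 are inputs without antibody and 2 are immunoprecipitations of H3K9me3. Broad peaks on hg19 were deposited as 2 lists, numbered 1 and 2 here as in their peak names. By the labels, list 1 goes with both inputs and list 2 with both antibody samples, but peak names in each list call it an immunoprecipitation. Neither list was therefore given to a sample or group, no value has a replicate error, and no test was made. Read counts cannot be had from peaks, which leaves the depth unknown, and marker genes of the cell type could not be checked.

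Members were all peaks that overlapped hg19 chromosome 5 from 140160001 to 140900000, a stretch of 740 kb. They numbered 86 of 326674 peaks in list 1 and 100 of 264919 peaks in list 2, counted on chromosomes 1 to 22 and X. The alpha section ran from 140160001 to 140400000, the beta section from 140430001 to 140630000 and the gamma section from 140700001 to 140900000. The 2 Mb on either side served as flanks.

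Clustered protocadherins are cell-surface adhesion proteins best known from neurons, where each cell uses a few of them and proteins of the same kind bind each other across cells. In the alpha and gamma families, many variable first exons stand in a row, each with its own promoter, and are spliced to a shared set of constant exons. The beta genes have no such shared exons, and each is coded within its own exon. Promoter choice is tied to DNA methylation and the insulator protein CTCF, and H3K9 methylation by SETDB1 is known to act on these genes in neurons.

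The RefSeq annotation on GRCh38.p14 lists 15 alpha, 16 beta and 22 gamma protein-coding genes, in the order alpha, beta, gamma. Its coordinates do not belong to hg19, so peaks were not placed on single genes. Between beta and gamma, it has the protein-coding genes SLC25A2, a mitochondrial carrier of basic amino acids, and TAF7, a subunit of the general transcription factor TFIID. ZMAT2 and the vault RNA genes VTRNA1-1, VTRNA1-2 and VTRNA1-3 come shortly before alpha, and DIAPH1 and HDAC3 come after gamma.

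The following stretches are examples of promoters from each family, not all of which hold a word common in their family. No peak was placed on any of them. RefSeq promoters (250 bases before to 50 after a gene start) were found for 13 alpha, 14 beta and 20 gamma genes, in 52 entries. Each line gives 80 bases that lie before the gene start, on the plus strand, from GRCh38.p14, for the first and last gene with an entry and, in beta, also the first that holds the word of its family. Capitals mark that word of 8 bases. In each family 2 words were held by equally many promoters, more than held any other word, counting both strands. The one that is rarer among all promoters is marked.
PCDHA1: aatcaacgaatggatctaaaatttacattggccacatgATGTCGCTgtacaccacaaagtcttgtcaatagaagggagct
PCDHAC2: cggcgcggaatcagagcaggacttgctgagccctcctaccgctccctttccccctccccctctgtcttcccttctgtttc
PCDHB1: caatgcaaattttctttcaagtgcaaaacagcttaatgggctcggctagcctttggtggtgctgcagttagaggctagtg
PCDHB2: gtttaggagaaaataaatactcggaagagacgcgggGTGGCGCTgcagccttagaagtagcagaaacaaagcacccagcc
PCDHB15: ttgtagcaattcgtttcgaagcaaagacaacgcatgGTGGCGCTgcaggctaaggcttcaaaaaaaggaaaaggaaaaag
PCDHGA1: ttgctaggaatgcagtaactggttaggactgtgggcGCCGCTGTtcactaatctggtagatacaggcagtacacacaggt
PCDHGC4: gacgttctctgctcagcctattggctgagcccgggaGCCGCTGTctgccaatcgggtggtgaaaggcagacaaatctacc

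The word of the alpha family, ATGTCGCT, stood in 9 of 13 alpha promoters and in 0.234% of all 35116 promoters. PCDHA9, PCDHA11 and the C-type genes PCDHAC1 and PCDHAC2 lacked it. The word of the beta family, GTGGCGCT, stood in 13 of 14 beta promoters, all except that of PCDHB1, and in 1.15% of all promoters. The word of the gamma family, GCCGCTGT, stood in 13 of 25 gamma entries, which belong to 11 of 20 genes, and in 1.63% of all promoters. The equally frequent words were GATGTCGC in alpha, GGTGGCGC in beta and GCGCCGCT in gamma. Of these, the alpha and beta words overlap the marked ones by 7 bases, and the gamma word overlaps its marked one by fewer. None of the 3 marked words occurred as an exact match in promoters of the other families. Close variants were not counted, and they can cross families. The promoters of PCDHA11 and PCDHGA3, for instance, both hold GTGTCGCT, which differs from the alpha word in its first base. The words were chosen because they were frequent, so these shares describe the families and are no test. The median number of CpG sites in 300 bases was 7 in alpha, 7.5 in beta and 10 in gamma promoters, against 14 in all promoters.

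Peaks covered more of the protocadherin locus than of the chromosome around it in both lists. In list 1 they covered 517 kb of the locus, or 69.9%, against 30.2% of the flanks, a ratio of 2.32. In list 2 they covered 372 kb, or 50.3%, against 12.2% of the flanks, a ratio of 4.14. Chromosome 5 as a whole is densely covered, at 56.0% in list 1 and 33.7% in list 2, so that the locus stood out less from its chromosome than from its flanks (ratios of 1.25 and 1.5 to the rest of chromosome 5). Genome-wide, 45.0% was covered in list 1 and 25.2% in list 2.

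The flanks themselves were uneven. The upstream flank was covered 25.2% in list 1 and 10.6% in list 2, the downstream flank 35.1% and 13.7%. In blocks of 200 kb, the 20 blocks of both flanks were covered 8.24% to 56.8% in list 1, with a median of 30.2%. In list 2 the blocks were covered 1.98% to 30.5%, with a median of 9.13%. The densest block of both lists ran from 139360001 to 139560000. Beta and gamma were covered more than each of the 20 blocks in both lists, while alpha exceeded 19 of 20 in list 1 and 20 of 20 in list 2. U2OS cells are aneuploid. DNA copy number and the mappability of the repeated exons were not measured, and their part in these differences was not tested.

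**Figure D1:**
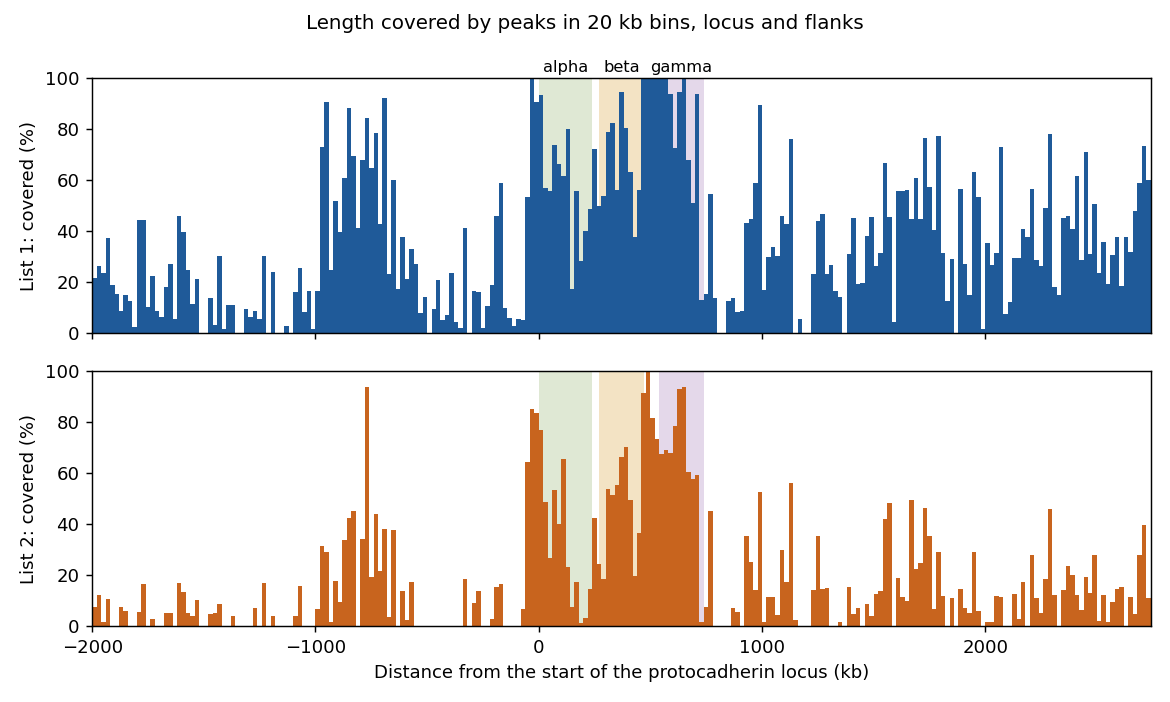
Share of each 20 kb bin covered by peaks (y axis, %) against the distance from the start of the protocadherin locus (x axis, kb), with list 1 above and list 2 below. Shading marks the alpha, beta and gamma sections. Coverage reaches 100% in list 1 and 100% in list 2 in the interval between beta and gamma and falls to 13.0% and 1.82% in the last bin of gamma.

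Among 4087 adjoining stretches of 740 kb that tile chromosomes 1 to 22 and X, 85.6% were covered less than the locus in list 1 and 90.0% in list 2. The medians of these stretches were 46.2% and 22.2%. On chromosome 5 alone the locus ranked lower, above 75.4% and 82.0% of 244 stretches. It was thus densely covered for the genome without being among the extremes.

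Peak coverage was uneven along the 3 gene families. Alpha was covered 56.4% in list 1 and 31.5% in list 2. Beta was covered 70.2% and 48.7%. Gamma was covered 78.6% and 64.9%, which was 1.39 and 2.06 times the share of alpha. The 70 kb between beta and gamma, where the annotation order places SLC25A2 and TAF7, were the densest part, at 100% and 87.2%. The 30 kb between alpha and beta were covered 48.1% and 28.2%. In both lists the order was therefore the interval between beta and gamma, then gamma, beta, alpha, and last the interval between alpha and beta.

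In list 1 a single broad peak of 140 kb, from 140614396 to 140754659, reaches from the end of beta across the interval into gamma. With this peak left out and its bases counted as not covered, the ratio of gamma to alpha in list 1 was 0.909. The ratio of the locus to its flanks was then 1.69. In gamma beyond this peak, list 1 covered 77.2% from 140760001 to 140860000 and 53.3% from 140860001 to 140900000, against 56.4% of alpha. In list 2 the widest peak was 36.3 kb, from 140628109 to 140664417, and touched neither alpha nor gamma. When each of the 100 members of list 2 was left out in turn, the ratio of gamma to alpha stayed between 1.69 and 2.44. The lowest value came without the widest peak in gamma, 23.6 kb from 140790323 to 140813934.

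**Figure D2:**
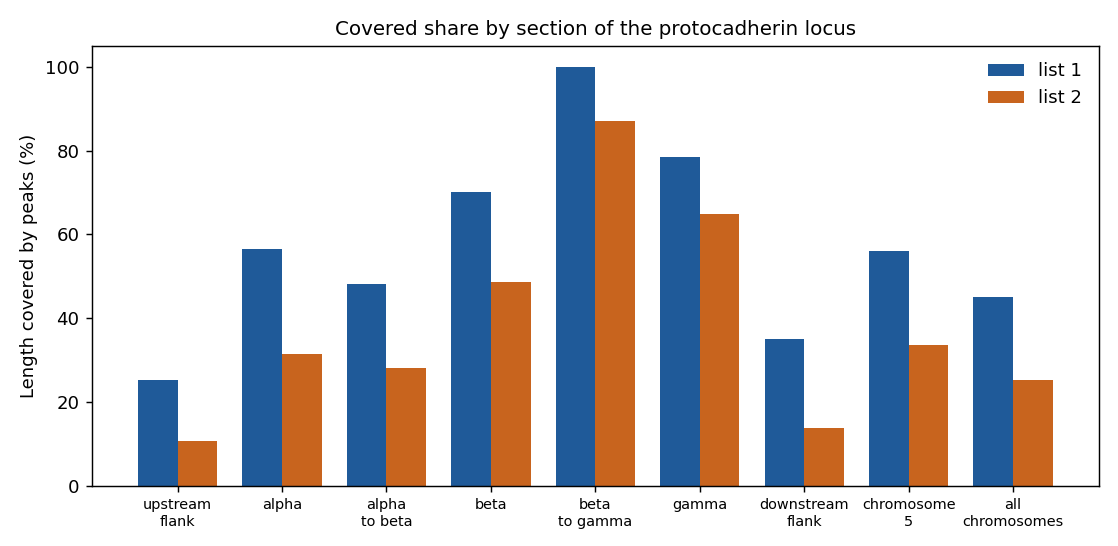
Length covered by peaks (y axis, %) in the flanks, the sections of the protocadherin locus, chromosome 5 and all chromosomes (x axis), as 1 bar per list without error bars because each list is a single set of values. The interval between beta and gamma has the tallest bars, 100% in list 1 and 87.2% in list 2.

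Within alpha, coverage was higher in the first part than in the last. From 140160001 to 140260000 it was 69.1% in list 1 and 49.1% in list 2, and from 140260001 to 140360000 it was 48.5% and 23%. List 2 had only 1 peak, of 886 bp, from 140335231 to 140386084, and the peak-free stretches on both sides of it, 24.5 and 25.5 kb, were the longest of the locus in that list. Between these borders list 1 had 9 peaks, 297 to 5660 bp wide, none with a partner. The borders were set by the gaps of list 2 and enclose only 1 of its peaks. This lack of partners therefore follows mostly from that choice. The next 100 kb, from 140360001 to 140460000, which hold the end of alpha and the start of beta, were covered 52.9% and 20.6%.

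Within beta, coverage was uneven, with a dip before the section's end. Peaks of list 1 took up 78.4% of the stretch from 140460001 to 140560000, and those of list 2 took up 59.4%. In the 20 kb bins that follow, the shares were 63.1% and 49.5% from 140560001, 37.5% and 19.7% from 140580001, and 56.2% and 36.3% from 140600001. From 140620001 to 140640000, across the end of beta, they were 100% and 91.3%. From 140660001 to 140760000, into the first gamma genes, the shares were 98.7% and 72.0%. From 140760001 to 140860000 they were 77.2% and 76.7%, the one stretch of 100 kb where both lists were nearly equal. The last 40 kb of the locus, at the end of gamma, were covered 53.3% and 30.5%.

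Both ends of the locus differed. At the upstream end, the density ran on beyond the border, as the 100 kb before alpha were covered 50.8% in list 1 and 48.0% in list 2. This stretch was uneven. Its 20 kb bin from 140080001 was covered 5.2% and 6.8%, that from 140120001 100% and 85.1%, and that from 140140001 90.4% and 83.6%. The bins from 140120001 and 140140001 were denser than alpha as a whole (56.4% and 31.5%). The 100 kb after gamma were covered 16.7% and 10.5%. The longest stretch of the locus free of peaks in both lists, 16.0 kb from 140880241 to 140896201, lay at the end of gamma, and 97.8% of the stretches of chromosome 5 free of peaks in both lists were shorter. The next longest, 12.1 kb from 140417924 to 140430038, fell between alpha and beta.

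Peaks less than 10 kb apart joined into a few long domains. In list 1 a domain of 450 kb ran from 140430039 to 140880240, over beta, the interval and nearly all of gamma, with 81.1% covered, and ranked 94 by length among 1182 domains of chromosome 5. In list 2 a domain of 423 kb ran from 140456827 to 140879446, with 66.8% covered, and ranked 39 among 2698. The downstream ends of these domains differed by less than 1 kb between the lists, beside the 16.0 kb stretch. At this joining distance alpha belonged to other domains in both lists. A domain of 310 kb, 140108131 to 140417923, held it in list 1. Its first part fell into a domain of 196 kb, 140107106 to 140302941, in list 2. When only peaks less than 3 kb apart were joined, the core from the end of beta into gamma remained as 231 kb in list 1 (140605459 to 140836798) and 220 kb in list 2 (140615326 to 140835066). By length it was number 35 of 7021 domains of chromosome 5 in list 1 and number 6 of 9315 in list 2. When peaks less than 25 kb apart were joined, all 3 families fell into 1 domain in list 1, from 139866365 to 140944945. In list 2 a break remained inside alpha, between a domain ending at 140360632 and one starting at 140386085.

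Dense coverage was also counted in windows of 10 kb, called dense when peaks covered at least 50% of them. In list 1, 55 of 74 windows of the locus (74.3%) were dense, against a background of 45.2% of 303439 windows genome-wide, 59.0% on chromosome 5, 17.0% upstream and 32.0% downstream. In list 2, 40 of 74 windows (54.1%) were dense, against 20.9% genome-wide, 30.0% on chromosome 5, 6% upstream and 7.50% downstream. The same 40 windows were dense in both lists together, against 20.5% genome-wide. Alpha had 14 of 24 dense windows in list 1 and 7 of 24 in list 2, shares of 58.3% and 29.2% that lay close to those of chromosome 5. Beta had 15 and 9 of 20, gamma had 17 and 16 of 20, and the interval between them had 7 of 7 in both lists. Over the 74 windows, the covered shares of list 1 and list 2 had a Spearman's rho of 0.799 and a Pearson's r of 0.828. This describes neighbouring windows that share peaks.

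**Figure D3:**
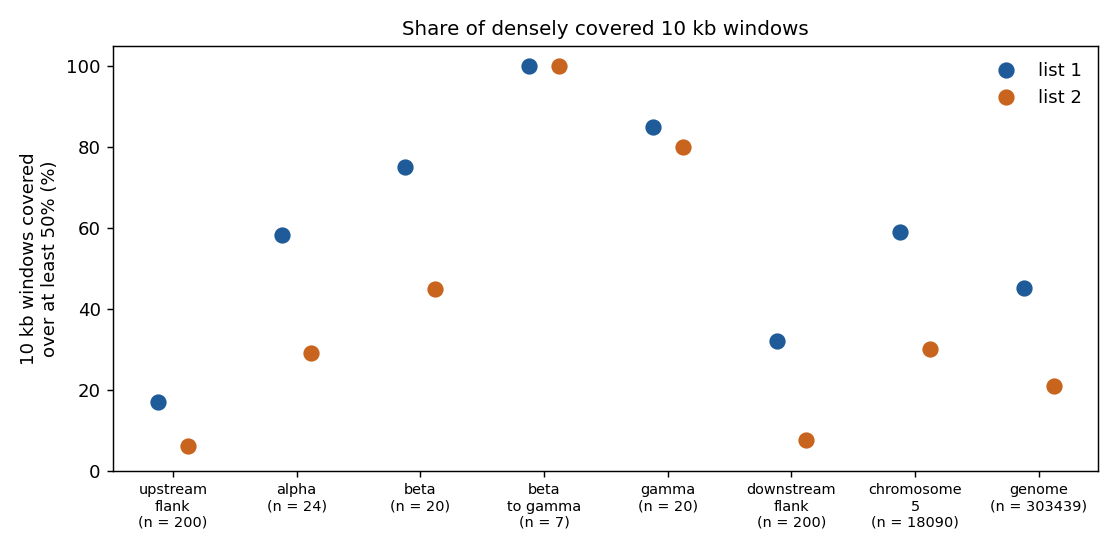
Share of 10 kb windows covered over at least 50% of their length (y axis, %) in the flanks, the sections of the locus, chromosome 5 and the genome (x axis, with the number of windows), as 1 point per list. Alpha lies near chromosome 5 (58.3% and 29.2% against 59.0% and 30.0%), and gamma lies above it, with 17 and 16 of its 20 windows.

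The single peaks of the locus were of low enrichment. Fold enrichment here is the authors' value per peak over the peak caller's background. Members of list 1 lay between 1.44 and 2.56 with a median of 1.72, against 1.64 over the whole list and 1.59 in the flanks. Those of list 2 lay between 1.90 and 3.27 with a median of 2.24, against 2.12 and 2.10. The lowest fold of its list was shared by 9 member peaks in each list. A −log10 p of at least 2 was reached by 3 of 86 members in list 1 (3.49%), near the background of 4.12% of all peaks of that list, and by 56 of 100 in list 2, above the background of 39.8%. The 3 peaks are in alpha and beta. With only peaks at this threshold, list 1 covered less of the locus than of the flanks, a ratio of 0.925. A q of at most 0.05 was reached by no member of list 1, where the lowest q was 0.103, against a background of 0.19% of that list. In list 2, 2 of 100 members reached it, a share near the background of 2.07%.

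Median fold, like coverage, was lowest in alpha and highest in gamma among the 3 families in both lists. In list 1 it was 1.69 in alpha, 1.75 in beta and 1.88 in gamma, and in list 2 it was 2.16, 2.26 and 2.31. Median width in list 2 was 1611 bp in alpha, 1907 bp in beta and 4403 bp in gamma. In list 1 it was 2515, 3190 and 3081 bp. A −log10 p of at least 2 was reached in list 2 by 13 of 32 peaks in alpha (40.6%), 21 of 34 in beta (61.8%) and 18 of 27 in gamma (66.7%). The share in alpha was near the background of 39.8% of all peaks of that list. List 1 did not follow this order, with 2 of 39 peaks in alpha, 1 of 29 in beta and 0 of 17 in gamma, against a background of 4.12%. Peaks across a border count in both sections.

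The strongest peak of list 2 lay from 140693033 to 140705920, at the end of the interval between beta and gamma and over the first 5.92 kb of gamma. It was 12.9 kb wide with a fold of 3.27, a −log10 p of 4.04 and a q of 0.00943, and 99.6% of the peaks of list 2 had a lower fold. In list 1 this place was inside the 140 kb peak, whose fold over its whole length was 2.03. The other member of list 2 with a q under 0.05 lay inside gamma, from 140756447 to 140757917, with a fold of 3.03 and a q of 0.0345. In beta the strongest peaks of list 2 were from 140508071 to 140509984 (fold 2.89) and from 140477060 to 140481362 (fold 2.79).

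The strongest peaks of list 1 lay elsewhere. The highest fold, 2.56, belonged to a peak of 603 bp in alpha from 140327217 to 140327819, which had no partner in list 2. The next, from 140275151 to 140276252 in alpha, had a fold of 2.45, and the third, from 140569413 to 140573423 in beta, had a fold of 2.42. At the last of these, list 2 had a peak from 140569581 to 140573267 with a fold of 2.42. In gamma no peak of list 1 exceeded a fold of 2.06.

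**Figure D4:**
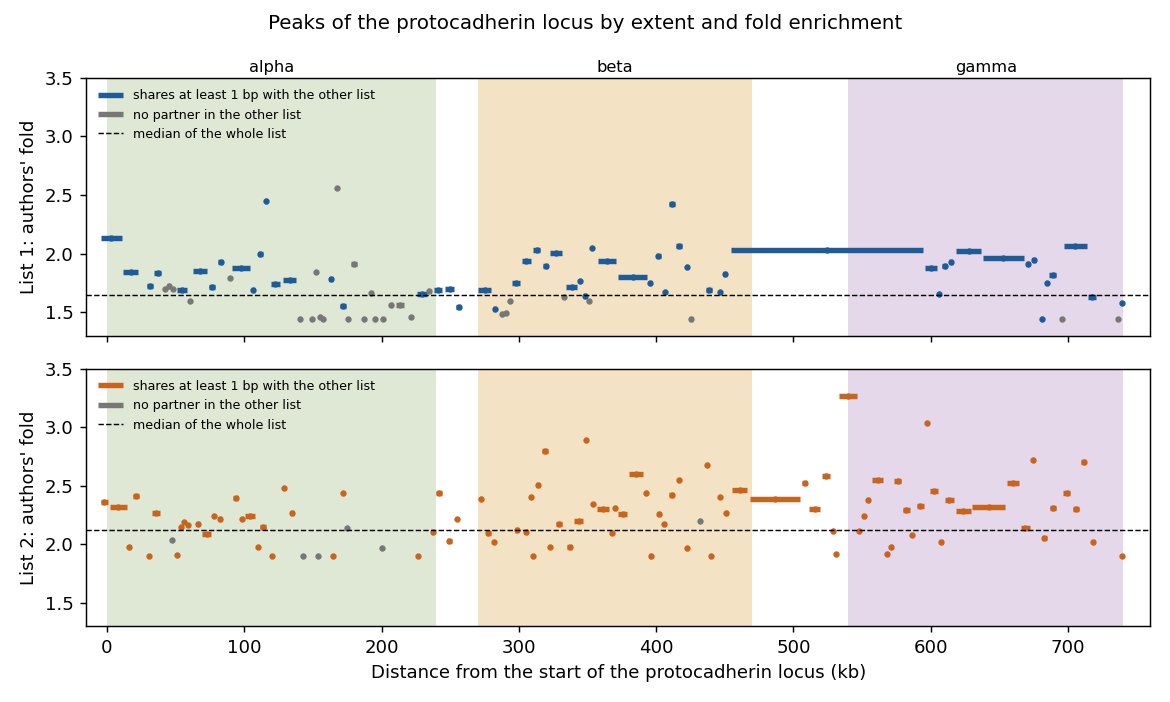
Each peak of the locus as a horizontal bar over its extent (x axis, distance from the start of the locus in kb) at the authors' fold enrichment (y axis), with list 1 above and list 2 below. Grey bars have no partner in the other list, the dashed line is the median fold of the whole list (1.64 and 2.12), and dots mark peak centres. Of the grey bars, 21 of 29 in list 1 and 5 of 6 in list 2 are in alpha. In list 1, 46.2% of the alpha peaks had a partner, near the 50.8% of all peaks of that list.

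Most member peaks shared at least 1 bp with the other list, except those of list 1 in alpha, where the share was near that of all peaks of list 1. Of the members of list 1, 57 of 86 (66.3%, Wilson 95% interval 55.8 to 75.4%) overlapped a peak of list 2 by 1 bp or more, against a background of 50.8% of all peaks of list 1 and 38.8% in the flanks. Of the members of list 2, 94 of 100 (94.0%, 87.5 to 97.2%) overlapped a peak of list 1, against a background of 90.1% and 89.0% in the flanks. These intervals cover counting error only, treat neighbouring peaks as independent and are no test. When the overlap had to span at least 50% of both peaks, a minority had a partner, 22 of 86 members of list 1 (25.6%, background 16.1%) and 22 of 100 of list 2 (background 19.9%). In alpha 18 of 39 peaks of list 1 had a partner (46.2%, near the background of 50.8%). Beta, with 23 of 29 (79.3%), and gamma, with 15 of 17 (88.2%), were above that background. In list 2 the counts were 27 of 32, 33 of 34 and 27 of 27. List 2 also covered more of beta (48.7%) and gamma (64.9%) than of alpha (31.5%). A peak meets a partner more easily where the other list is denser. The part of density in these shares and counts was not tested. By length, the lists shared 340 kb of the locus, a Jaccard index of 0.619, against 0.464 genome-wide, 0.353 upstream and 0.320 downstream. The index was 0.393 in alpha, 0.628 in beta, 0.713 in gamma and 0.872 in the interval between beta and gamma. In that interval 1 peak of list 1 covers 100%, so the index there is only the covered share of list 2. Denser stretches share more length for the same number of peaks, and the part of density in the order of these indices was not tested.

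List 1 reached weaker peaks than list 2, down to a p of 0.0960 against 0.0265. With peaks of list 1 weaker than any of list 2 dropped, 26 of its 86 member peaks stayed. They covered 42.9% of the locus against 5.94% of the upstream and 7.22% of the downstream flank, a ratio of 6.52. Alpha was then covered 15.7%, beta 34.5% and gamma 70.4%, so the gradient from alpha to gamma was steeper than with all peaks (4.47 times in place of 1.39 times). The 140 kb peak was among those that stayed.

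Dense regions elsewhere on chromosome 5 and on chromosome 19 give a scale for these values. They were picked for their coverage in the same lists, so the comparison is a description. From 2 to 9 Mb on the short arm of chromosome 5, peaks covered 87.8% in list 1 and 75.3% in list 2, and from 37 to 38 Mb on chromosome 19, 89.7% and 85.2%. Gamma, at 78.6% and 64.9%, was below both, and the interval between beta and gamma, at 100% and 87.2%, was above both. Gamma (200 kb) and the interval (70 kb) are far shorter than these regions, and short stretches vary more in coverage. In list 1 the interval lies within 1 peak. Among 43342 adjoining stretches of 70 kb genome-wide, 99.5% were covered less than the interval in list 1 and 98.6% in list 2, where 590 were covered more. Median fold in these regions was 1.99 and 2.39 on chromosome 5 and 2.30 and 2.75 on chromosome 19, higher than the 1.72 and 2.24 of the protocadherin locus. Median width was 9031 and 5799 bp on chromosome 5 and 22043 and 8802 bp on chromosome 19, against 2907 and 2151 bp at the locus.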

How the data were processed

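H3K9me3 immunoprecipitation and input libraries were made from U2OS cells. Per the submitters' processing notes, the tools were MACS2 2.2.7.1, Bowtie2 2.5.0, Trim Galore 0.6.7 and bcl2fastq 2.17, with hg19 as the build and no roles stated. The cutoff, control, duplicate handling and pooling were not given in the sources used here. Each peak of the deposited broad peak lists has a fold enrichment (a ratio over background), a −log10 p, a −log10 q and a whole-number score, which in nearly every row is the deposited −log10 p times 10 cut to a whole number; the score was not used further.

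Chromosomes 1 to 22 and X were used, with spans up to the last peak end. Covered length is the union of peaks. Windows were 10 kb, joining distance 10 kb and minimum overlap 1 bp. Coordinates are 1-based. Background shares are over all windows or all peaks of a list. The interval functions were tested on simulated data and recovered the known answers in 20 of 20 sets. Promoter words of 8 bases were counted on both strands in all RefSeq promoters. Named peaks were those with the highest fold or width in a section, and named stretches the longest without peaks. The borders, the gene families and the comparisons were chosen with earlier results of these data known. Alternatives were other peak thresholds, fold weighting, base pairs in both lists, other flanks and other window sizes. Scripts ran on Python 3.11.15 with scipy 1.17.1, pandas 2.3.3, numpy 2.4.6 and matplotlib 3.10.9.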

Additional observations from a re-analysis of the deposited data

How the results depend on the processing

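No paired analysis was possible because neither list belongs to a sample, and no value comes from a test. The depth is unknown. The ratio of the locus to its flanks stayed above 1 in list 2 under all 11 alternatives and in list 1 under 11 of 12. It was 0.925 in list 1 and 6.40 in list 2 for peaks with −log10 p of at least 2, where list 1 kept only 3 peaks in the locus. It was 3.24 and 5.69 for peaks above the median fold, 2.54 and 4.39 with fold weighting, 4.34 for base pairs in both lists, 2.44 and 4.50 without peaks under 1 kb, and 6.52 in list 1 without its peaks weaker than any of list 2 (called list 1 limited below). With flanks of 1 Mb it was 2.06 and 3.13, with 5 Mb 1.85 and 3.09, with the upstream flank 2.77 and 4.75, with the downstream flank 1.99 and 3.67, and with the rest of chromosome 5 1.25 and 1.5. Without the widest peak it was 1.69 and 3.73.

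The ratio of gamma to alpha was 0 in list 1 and 2.89 in list 2 for peaks with −log10 p of at least 2, since list 1 had no such peak in gamma and 2 in alpha. It was 1.53 and 2.51 above the median fold, 1.53 and 2.23 with fold weighting, 2.41 for base pairs in both lists, 1.43 and 2.29 without peaks under 1 kb, and 4.47 with list 1 limited. Without the widest peak it turned to 0.909 in list 1, since that peak covers part of gamma and its bases then count as not covered. In list 2 it was 1.69 without the widest peak that touches gamma. All alternatives for this ratio, and leaving out single peaks, were chosen after seeing the data. With −log10 q of at least 2 no ratio could be formed, because alpha and the flanks held no such peak.

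Under a reciprocal overlap of 50%, 25.6% of the members of list 1 and 22% of those of list 2 had a partner, against 16.1% and 19.9% of all peaks, so that most members no longer had one. With list 1 limited, the shares were 92.3% and 53.0%. The share over all peaks was not computed under this limit, so these 2 shares have no background and tell nothing particular about the locus. The share of dense windows was 74.3% and 54.1% with windows of 5 kb, and 81.1% and 56.8% with 20 kb.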
